A study of Mus musculus with 12 samples.

Results

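The NRF2 pathway and the antioxidant enzymes were followed in cultured mouse mammary fibroblasts after doxorubicin or hydrogen peroxide. The set held 41 of the 55487 genes of the deposited expression table, matched by gene symbol. It comprised 3 regulators, 13 direct NRF2 targets, 12 peroxide-removing enzymes, 3 superoxide dismutases, 2 thioredoxins, 5 glutathione transferases, and biliverdin reductase B with 2 metallothioneins. All 41 passed the filter of at least 1 CPM (reads per 1e+06 reads assigned to genes) in at least 3 of the 12 libraries.

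The cells were a primary mammary fibroblast line (MMF) from the fat pad of 1 healthy B6 mouse, sequenced as 4 groups of 3 libraries. The doxorubicin group received 100 nM of the drug, which poisons topoisomerase and breaks DNA, for 24 h and was lysed on day 7. Its vehicle group received water and was lysed on the same day. The peroxide group had 3 exposures of 2 h to 750 uM hydrogen peroxide, each followed by a rest of 48 h. It was lysed on day 6, as was its own water vehicle group. The series describes both treatments as inducers of senescence. Vehicle cultures were passaged to keep their density healthy, so treatment and passaging cannot be told apart. All libraries derive from a single line, and nothing in the labels ties replicates to separate cultures. The p-values therefore measure only the spread between libraries, which may be technical.

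NRF2, encoded by Nfe2l2, is a transcription factor that KEAP1 normally holds for ubiquitination and rapid breakdown. Oxidants and electrophiles modify cysteines of KEAP1, and NRF2 then accumulates, pairs with small MAF proteins and binds antioxidant response elements near its targets. Because this control acts on the protein, the RNA level of Nfe2l2 is not itself a measure of NRF2 activity. The targets supply glutathione, reduced thioredoxin and NADPH, on which peroxiredoxins and glutathione peroxidases draw to remove peroxides. Catalase uses neither glutathione nor thioredoxin as a reductant.

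Estimated depths ran from 17.3 to 37.6 M reads (M, 1e+06), at which 3 reads corresponded to 0.0798 to 0.173 CPM. Summed CPM of 6 fibroblast markers was 7002 to 9438 in doxorubicin libraries and 5469 to 6061 in their vehicle, and 7200 to 8518 in peroxide libraries against 5034 to 5714 in their vehicle. The 5 epithelial markers were each below 1 CPM in every library. Of other markers, 3 of 4 endothelial, 2 of 5 leukocyte and 1 of 4 adipocyte genes stayed below 1 CPM in every library, and their part in the results was not tested. The leukocyte sum was 27.1 to 32.4 CPM after doxorubicin against 11.1 to 17.7 CPM, and 23.1 to 26.1 CPM after peroxide against 16.3 to 17.4 CPM. The endothelial sum was 34.0 to 44.4 CPM after doxorubicin against 12.4 to 16.1 CPM, and 22.1 to 27.3 CPM after peroxide against 5.57 to 9.19 CPM, whereas the adipocyte sum was 22.0 to 29.3 against 55.5 to 64.7 CPM and 28.4 to 31.4 against 50.1 to 51.7 CPM. Single markers did not all follow these sums. Of the adipocyte genes, Fabp4 was lower after doxorubicin and peroxide (log2 differences -1.48 and -0.86), but Adipoq was higher (0.92 and 1.06). After peroxide the leukocyte genes Lyz2 and Cd68 were higher (2.35 and 0.68), but Csf1r was lower (-0.57). Doxorubicin replicate 1, its vehicle replicate 3 and peroxide replicate 2 lay apart from the rest of their groups on the second principal component, which held 23.7% of the variance. Values without them are given beside the main results they touch.

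After doxorubicin, the direct NRF2 targets of this set were mostly lower than in the vehicle, while the peroxide-removing enzymes split. Of the 13 targets 1 rose, 8 fell and 4 were not called. Of the 12 peroxide-removing enzymes 5 rose, 4 fell and 3 were not called. The median log2 fold change was -0.41 over the targets and 0.02 over the enzymes, beside -0.03 over all 13280 genes tested. Over all 41 genes 8 rose and 20 fell, against a background of 22.1% of tested genes higher and 27.8% lower (49.9% called in all). Further NRF2 targets outside the 41 were not mostly lower and are given with the wider list.

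After peroxide, 1 of the 13 targets rose, 7 fell and 5 were not called, and 5 of the 12 peroxide-removing enzymes rose, 1 fell and 6 were not called. Median log2 fold changes were -0.40 over the targets and 0.07 over the enzymes, beside -0.01 over all genes. Over all 41 genes 11 rose and 13 fell, with 27.3% of tested genes higher and 23.4% lower (50.7% called in all). The 8 and the 11 include Sod3, which passed the filter only through treated libraries and had to differ. The enzyme medians lay close to 0 although single enzymes moved far in both directions, as the plot of all 41 effects shows. After doxorubicin the enzyme median was -0.07 without the 3 libraries that lay apart.

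**Figure D1:**
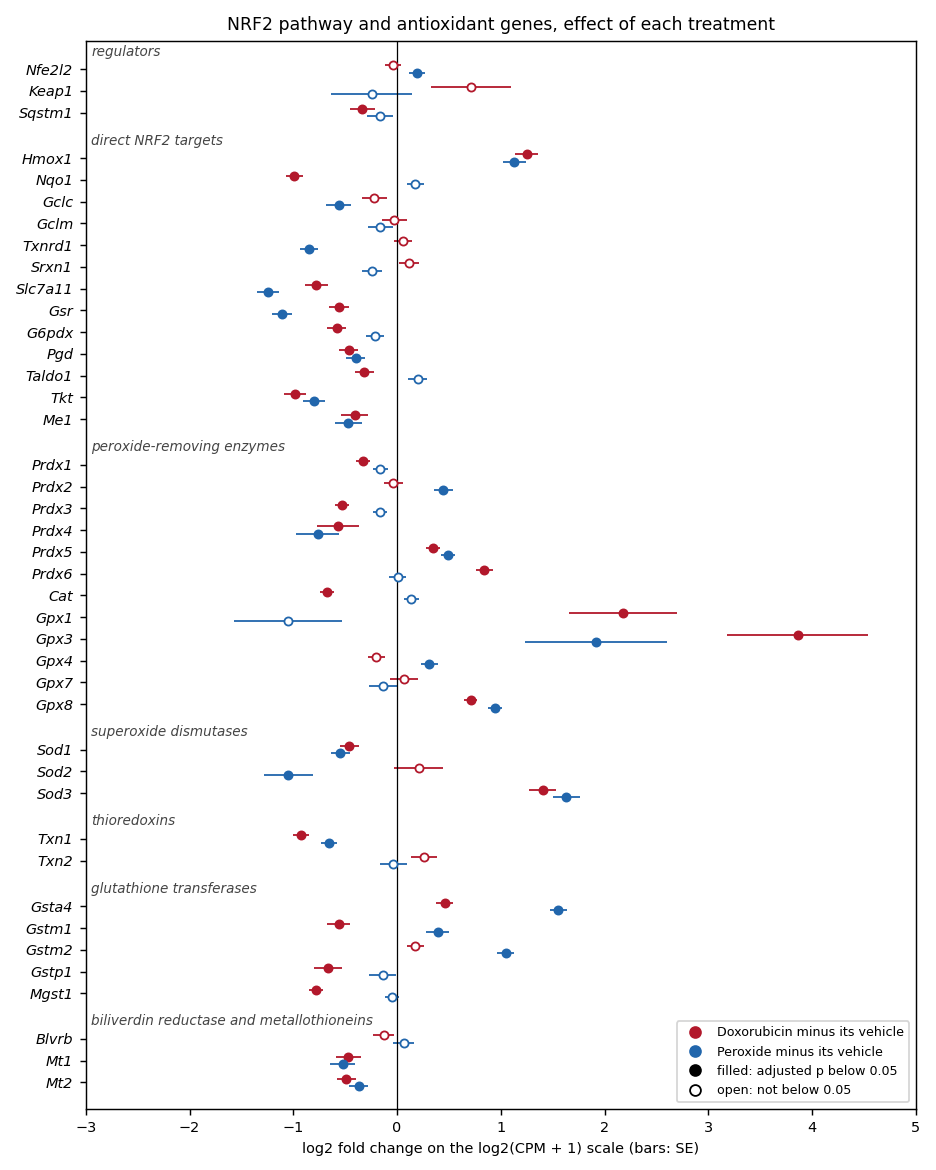
Effect of doxorubicin (red) and of peroxide (blue) on each of the 41 genes, each against its own vehicle, as log2 fold change on the log2(CPM + 1) scale; bars are SE and filled points have an adjusted p below 0.05. Among the targets, Hmox1 lies at 1.25 and 1.13 while most others lie left of 0; Gpx3 lies farthest right, at 3.86 after doxorubicin.

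Among the regulators, Nfe2l2 was called after peroxide and Sqstm1 after doxorubicin, both by small amounts, and Keap1 in neither. Nfe2l2 (ENSMUSG00000015839, chr2:75675513-75704641, minus strand; GRCm38/mm10) stood at 209, 174 and 198 CPM in doxorubicin libraries, against 196, 195 and 204 CPM in their vehicle. It stood at 185, 193 and 195 CPM in peroxide libraries, against 158, 166 and 177 CPM in theirs. The doxorubicin libraries spanned the values of their vehicle, whereas the peroxide libraries all lay above theirs. The log2 difference was -0.04 ± 0.07 (SE) for doxorubicin (adjusted p = 0.680) and 0.19 ± 0.07 for peroxide (adjusted p = 0.0484). The peroxide call was lost when any library other than doxorubicin replicates 1 and 2 and peroxide vehicle replicate 3 was left out (adjusted p = 0.0610 to 0.163).

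Keap1 (ENSMUSG00000003308, chr9:21229730-21239361, minus strand) had 11.4, 51.8 and 18.1 CPM after doxorubicin, against 12.6, 13.9 and 13.1 CPM in the vehicle. Replicate 2 alone was far above the rest and replicate 1 lay below all 3 vehicle libraries, and the difference of 0.71 ± 0.39 was not called (adjusted p = 0.1497). Without doxorubicin replicate 1 it was 1.17 and called (adjusted p = 0.0124). After peroxide, Keap1 had 11.1, 12.7 and 10.8 CPM, against 16.6, 13.0 and 12.1 CPM in the vehicle, an overlapping pair of groups (-0.24, adjusted p = 0.631). Sqstm1, which encodes the autophagy receptor p62 that can sequester KEAP1, was lower after doxorubicin at 178 ± 22.0 against 224 ± 9.11 CPM (SD, n = 3), a log2 difference of -0.33 ± 0.12 (adjusted p = 0.0422). That call was lost without doxorubicin replicate 1 or 3, any library of its vehicle, peroxide replicate 1 or peroxide vehicle replicate 2 (adjusted p = 0.0505 to 0.137). With peroxide Sqstm1 was not called (-0.17, adjusted p = 0.286).

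The stretches below show where the core of the antioxidant response element, TGACNNNGC on either strand, stood near RefSeq start sites of direct targets, since this is the sequence through which NRF2 acts. Windows of 300 bases, 250 before the start site and 50 after it, were searched on GRCm38.p6. Of 35 matched members 11 held the core (31.4%), as did 6 of 10 matched direct targets (60.0%) and 1 of 11 matched peroxide-removing enzymes (9.09%), Prdx1. Hmox1, Gclc, Sod3, Gsta4, Prdx6 and Gsr were not among those matched. Among all 27025 genes with a window the share was 13.99% (12.4% of 32851 windows). These counts describe letters in short windows, and many NRF2 elements lie farther from the start site. The core is in capitals, read 5′ to 3′ on the strand of the gene, and a core that starts with GC lies on the other strand.
Txnrd1 (chr10:82859094-82859142, plus strand): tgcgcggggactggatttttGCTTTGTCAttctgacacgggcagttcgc
Gclm (chr3:122245403-122245451, plus strand): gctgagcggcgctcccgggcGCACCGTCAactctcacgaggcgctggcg
G6pdx (chrX:74428909-74428957, minus strand): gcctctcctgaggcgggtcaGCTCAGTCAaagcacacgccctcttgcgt
Me1 (chr9:86695912-86695930, minus strand): gatgccgccgTGACTCAGC
Srxn1 (chr2:152105542-152105560, plus strand): gcagtgggcaGCTAGGTCA
Pgd (chr4:149166071-149166089, minus strand): atttcagagcTGACATTGC
Prdx1 (chr4:116685446-116685494, plus strand): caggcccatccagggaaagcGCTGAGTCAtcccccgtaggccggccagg
In Txnrd1, Gclm, G6pdx and Prdx1 the core lay wholly upstream, its far end 92, 134, 57 and 133 bases before the start site. In Me1 it spanned the start site, and in Srxn1 and Pgd it lay within the first bases of the transcript. The genes with a core did not share an effect: Me1 and Pgd fell under both treatments, G6pdx and Prdx1 fell after doxorubicin, Txnrd1 fell after peroxide, and Gclm and Srxn1 were called in neither. The other members with a core were Nfe2l2, Mt2, Mgst1 and Sod1.

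Hmox1 and Nqo1, both widely used as readouts of NRF2, moved apart. Hmox1 (ENSMUSG00000005413, chr8:75093621-75100589, plus strand) encodes the inducible haem oxygenase. It reached 1085, 995 and 984 CPM after doxorubicin, against 426, 399.5 and 462 CPM in the vehicle, and 543, 709 and 517 CPM after peroxide, against 247, 270.2 and 283 CPM in the vehicle. Every treated library stood above every library of its vehicle, by 1.25 ± 0.11 with doxorubicin (adjusted p = 4.26e-06) and 1.13 ± 0.11 with peroxide (adjusted p = 8.68e-06). Of the 13 listed direct targets, Hmox1 alone rose under either treatment in the main model, which weighted all libraries equally. With array weights, which weight libraries unequally, Srxn1 also rose after doxorubicin (adjusted p = 0.0168). NRF2 targets outside that list moved in both directions and are given with the wider list. Nqo1 (ENSMUSG00000003849, chr8:107388225-107403206, minus strand), a reductase that keeps quinones from redox cycling, had 39.5, 35.7 and 38.8 CPM after doxorubicin, against 75.3, 78.9 and 75.0 CPM in its vehicle. The groups were far apart and each tight, with a log2 difference of -0.99 ± 0.09 (adjusted p = 3.47e-06). After peroxide Nqo1 had 66.7, 67.4 and 69.8 CPM, against 58.4, 53.9 and 68.4 CPM in the vehicle. The highest vehicle library lay within the peroxide range, and the difference of 0.18 ± 0.09 was not called (adjusted p = 0.108), though without that library it was 0.27 (adjusted p = 0.0160). The effects of the treatments on Nqo1 differed by -1.17 ± 0.12 (adjusted p = 0.000121).

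**Figure D2:**
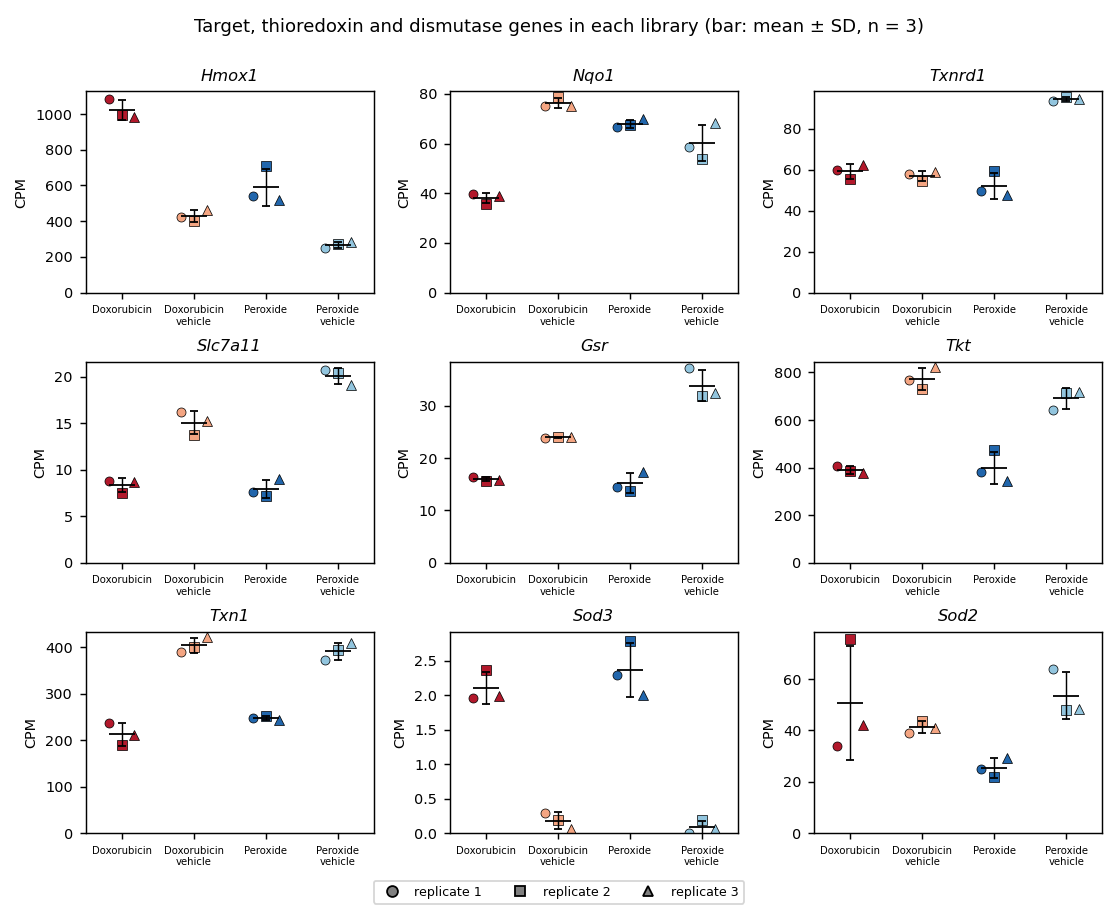
CPM of 9 target, thioredoxin and dismutase genes in each library (points, by replicate) with mean and SD (n = 3), in the groups doxorubicin, its vehicle, peroxide and its vehicle. Hmox1 is higher and Slc7a11 and Tkt are lower in both treated groups; Nqo1 is lower after doxorubicin and Txnrd1 after peroxide.

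Of the 4 genes of cystine import and glutathione turnover, Slc7a11 and Gsr fell under both treatments. Gsr fell further with peroxide (a difference of 0.55 ± 0.14, adjusted p = 0.0124). For Slc7a11 the difference was 0.47 ± 0.15 (adjusted p = 0.0389), a call lost in 13 of 23 alternatives. Slc7a11 (ENSMUSG00000027737, chr3:49892526-50443614, minus strand) is the cystine transporter that limits glutathione synthesis. It had 8.86, 7.53 and 8.74 CPM after doxorubicin, against 16.3, 13.8 and 15.2 CPM in the vehicle, and 7.63, 7.18 and 8.98 CPM after peroxide, against 20.7, 20.4 and 19.1 CPM in the vehicle. All treated libraries lay below those of their vehicle, with log2 differences of -0.78 ± 0.11 with doxorubicin (adjusted p = 0.000138) and -1.24 ± 0.11 with peroxide (adjusted p = 3.36e-06). Gsr, the reductase that returns oxidised glutathione to its reduced form, had 16.5, 15.6 and 15.9 CPM with doxorubicin, against 23.9, 24.0 and 24.1 CPM, and 14.5, 13.7 and 17.3 CPM with peroxide, against 37.2, 31.8 and 32.5 CPM. It fell under both without overlap (-0.56 ± 0.10, adjusted p = 0.000705; -1.11 ± 0.10, adjusted p = 3.50e-06). Gclc and Gclm encode the catalytic and modifier subunits of glutamate-cysteine ligase, the first step of glutathione synthesis. Gclc fell after peroxide (-0.56 ± 0.12, adjusted p = 0.00231) and was not called after doxorubicin (-0.22, adjusted p = 0.146). Gclm was called in neither (-0.03, adjusted p = 0.854; -0.16, adjusted p = 0.281).

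In the thioredoxin branch, Txnrd1, the cytosolic selenoenzyme that reduces thioredoxin, had 60.1, 55.4 and 62.5 CPM after doxorubicin, against 57.8, 54.5 and 59.2 CPM in the vehicle. These groups overlapped (0.05, adjusted p = 0.638). After peroxide it had 49.8, 59.5 and 47.6 CPM, against 93.7, 95.9 and 94.4 CPM in the vehicle, and fell (-0.85 ± 0.09, adjusted p = 1.11e-05). The effects differed by 0.90 ± 0.12 (adjusted p = 0.000526). The day 7 and day 6 vehicle groups were not at 1 level: Txnrd1 was lower in the doxorubicin vehicle than in the peroxide vehicle (-0.72 ± 0.09, adjusted p = 0.000165), and the treated groups averaged 59.4 ± 3.64 CPM after doxorubicin and 52.3 ± 6.34 CPM after peroxide (SD, n = 3). Srxn1, sulfiredoxin, which restores overoxidised peroxiredoxins, was called with neither treatment (0.11, adjusted p = 0.340; -0.24, adjusted p = 0.0504), but without peroxide replicate 2 it was lower after peroxide (-0.33, adjusted p = 0.00957). With array weights it was higher after doxorubicin (adjusted p = 0.0168). Txn1, cytosolic thioredoxin, fell under both treatments. It had 238, 189.8 and 210.2 CPM with doxorubicin, against 390.2, 400.2 and 422 CPM, and 247, 253 and 243 CPM with peroxide, against 372, 395 and 408 CPM. Each treated group lay wholly below its vehicle (-0.93 ± 0.08, adjusted p = 2.98e-06; -0.66 ± 0.08, adjusted p = 3.97e-05). The mitochondrial Txn2 was called in neither (0.26, adjusted p = 0.112; -0.04, adjusted p = 0.836), and was higher after doxorubicin when peroxide replicate 2 or 3 was left out of the model (adjusted p = 0.0144 to 0.0271).

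Tkt, Taldo1, G6pdx and Pgd of the pentose phosphate pathway and malic enzyme Me1 all fell after doxorubicin. Of these 5 genes 3 fell after peroxide. Of all tested genes 27.8% were lower after doxorubicin and 23.4% after peroxide. Tkt, transketolase of the pentose phosphate pathway, had 409, 384 and 377 CPM with doxorubicin, against 769.7, 729.6 and 821 CPM in the vehicle, and 379.8, 473 and 344 CPM with peroxide, against 641, 712 and 719 CPM. No treated library reached its vehicle (-0.98 ± 0.10, adjusted p = 1.76e-05; -0.80 ± 0.10, adjusted p = 7.66e-05). Pgd, which makes NADPH in the oxidative branch of that pathway, fell under both (-0.47 ± 0.09, adjusted p = 0.00138; -0.40 ± 0.09, adjusted p = 0.00340). Malic enzyme Me1, another source of NADPH, also fell under both (-0.41 ± 0.13, adjusted p = 0.0210; -0.47 ± 0.13, adjusted p = 0.0102). The doxorubicin call of Me1 was lost without doxorubicin replicate 1 or vehicle replicate 1 or 2 (adjusted p = 0.0732 to 0.0782). G6pdx, the entry enzyme of the pathway, fell after doxorubicin (-0.58 ± 0.09, adjusted p = 0.000287). It was not called after peroxide (-0.21, adjusted p = 0.0694), except without peroxide replicate 2 (-0.31, adjusted p = 0.00522). Taldo1, transaldolase, fell after doxorubicin (-0.32 ± 0.09, adjusted p = 0.0141), a call lost without doxorubicin replicate 2 (adjusted p = 0.0559) or with libraries rescaled by median-of-ratios factors (adjusted p = 0.0707). After peroxide its effect was 0.20 (adjusted p = 0.0890), and without peroxide replicate 1 0.27 (adjusted p = 0.0474) and without peroxide replicate 2 0.11 (adjusted p = 0.294).

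Among the peroxide-removing enzymes, the largest changes were in glutathione peroxidases. Per kilobase of exon, Gpx4 and Prdx1 had the highest mean levels of the 12 genes in every group. These were 456 and 374 CPM per kilobase in doxorubicin libraries against 524 and 469 in their vehicle, and 530.0 and 452 in peroxide libraries against 426 and 506 in theirs. On this scale Gpx3 stood at 359 after doxorubicin, against 28.7 in the vehicle, where it was the lowest of the 12.

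Gpx3 (ENSMUSG00000018339, chr11:54902453-54910377, plus strand) encodes the secreted glutathione peroxidase of plasma. It had 555, 711 and 686 CPM after doxorubicin, against 69.2, 70.0 and 16.7 CPM in the vehicle. Every doxorubicin library was far above every vehicle library, a rise of 3.86 ± 0.68 (adjusted p = 0.000729), and 3.20 without the low vehicle replicate 3 (adjusted p = 0.00271). With peroxide it had 441, 69.2 and 483 CPM, against 66.01, 64.3 and 62.4 CPM in the vehicle. Peroxide replicate 2 was just above the vehicle libraries while the other two were far above them. The difference was 1.92 ± 0.68 (adjusted p = 0.0355), and the call was lost without peroxide replicate 1 or 3 or any library of the peroxide vehicle (adjusted p = 0.0745 to 0.127), without the filter on low values (adjusted p = 0.0770) or with each experiment fitted alone (adjusted p = 0.0544). Without the 3 libraries that lay apart, Gpx3 was higher by 3.31 after doxorubicin (adjusted p = 6.00e-10) and by 2.83 after peroxide (adjusted p = 1.70e-09).

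Gpx1 (ENSMUSG00000063856, chr9:108338903-108340343, plus strand), the main cytosolic glutathione peroxidase, had 236, 422 and 418 CPM after doxorubicin, against 114, 113 and 33.4 CPM in the vehicle. After peroxide it had 132, 58.5 and 192 CPM, against 325, 256 and 161 CPM in the vehicle. The doxorubicin libraries all exceeded their vehicle (2.18 ± 0.52, adjusted p = 0.00508), whereas the peroxide libraries overlapped theirs and were not called (-1.05 ± 0.52, adjusted p = 0.116). The effects differed by 3.23 ± 0.74 (adjusted p = 0.00820). The vehicle groups were not at 1 level here either. Gpx1 was lower in the doxorubicin vehicle than in the peroxide vehicle (-1.64 ± 0.52, adjusted p = 0.0371), a call lost in 7 of 23 alternatives. Gpx1 varied with the second principal component: its 2 lowest values, in doxorubicin vehicle replicate 3 and peroxide replicate 2, were in the libraries with the 2 highest scores (37.8 and 48.2). Its 3 highest values were in the libraries with the 3 lowest scores, and the part of this component in the result was not tested. Without the 3 libraries that lay apart, the effects were 1.88 with doxorubicin (adjusted p = 0.000173) and -0.57 with peroxide (adjusted p = 0.0639), differing by 2.45 (adjusted p = 0.000715).

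**Figure D3:**
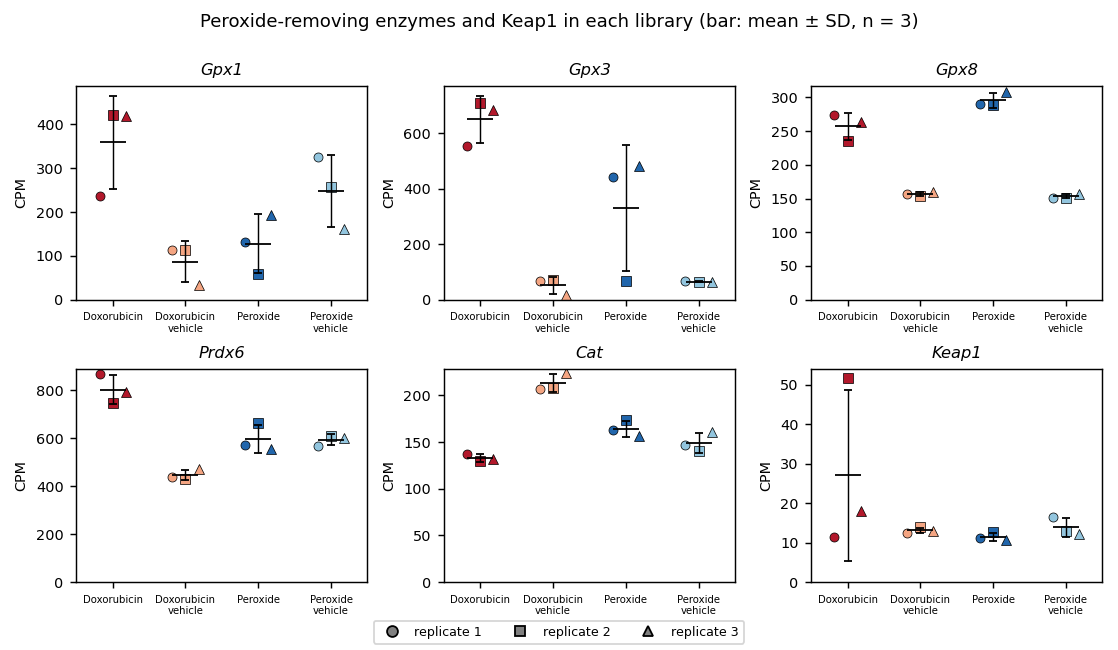
CPM of 5 peroxide-removing enzymes and of Keap1 in each library (points, by replicate) with mean and SD (n = 3), in the groups doxorubicin, its vehicle, peroxide and its vehicle. Gpx8 separates both treated groups from their vehicles, Prdx6 and Cat separate the doxorubicin group only, and Gpx1, Gpx3 and Keap1 spread widely within groups.

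Gpx8, a peroxidase of the endoplasmic reticulum, rose under both treatments with little spread, at 258 ± 20.1 CPM after doxorubicin against 157 ± 2.73 CPM, and 296 ± 11.3 CPM after peroxide against 153 ± 2.87 CPM (SD, n = 3). The effects were 0.71 ± 0.06 (adjusted p = 5.15e-06) and 0.94 ± 0.06 (adjusted p = 5.25e-07). Gpx4, which detoxifies lipid peroxides in membranes, rose after peroxide (0.31 ± 0.08, adjusted p = 0.00789) and was at -0.20 after doxorubicin (adjusted p = 0.0594). That value was called when doxorubicin replicate 1 or peroxide replicate 2 or 3 was left out (adjusted p = 0.0163 to 0.0454). Of the 50-base windows of Gpx4 exons 34.7% also occur in other genes, mostly the pseudogene Gpx4-ps2, so its level is uncertain. Gpx7, another peroxidase of the endoplasmic reticulum, was called in neither (0.07, adjusted p = 0.710; -0.13, adjusted p = 0.444).

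The 6 peroxiredoxins did not move as a family. Prdx6, which uses glutathione, had 869, 746 and 794 CPM after doxorubicin, against 440.5, 431 and 472 CPM in the vehicle, and 573, 665 and 556 CPM after peroxide, against 567, 611 and 602 CPM. It rose after doxorubicin (0.84 ± 0.08, adjusted p = 8.75e-06), while the peroxide libraries spanned their vehicle (0.01, adjusted p = 0.955). Prdx5 rose under both treatments (0.35 ± 0.07, adjusted p = 0.00147; 0.49 ± 0.07, adjusted p = 0.000116). Prdx2 rose after peroxide (0.45 ± 0.09, adjusted p = 0.00213) and was at -0.04 after doxorubicin (adjusted p = 0.767). Of the mitochondrial Prdx3 and the cytosolic Prdx1, both fell after doxorubicin (-0.53 ± 0.07, adjusted p = 6.99e-05; -0.33 ± 0.07, adjusted p = 0.00209). After peroxide they were at -0.17 (adjusted p = 0.0590) and -0.16 (adjusted p = 0.0686), and both were called lower when doxorubicin replicate 1 or 2 was left out of the model (Prdx3, adjusted p = 0.0417 to 0.0493; Prdx1, adjusted p = 0.0278 to 0.0413). Prdx4, of the endoplasmic reticulum, fell under both treatments (-0.57 ± 0.20, adjusted p = 0.0370; -0.77 ± 0.20, adjusted p = 0.00895). The doxorubicin call was lost when any 1 of the doxorubicin libraries, vehicle replicate 1 or 2, or peroxide vehicle replicate 2 was left out (adjusted p = 0.0507 to 0.1004), but stood without the 3 libraries that lay apart (-0.68, adjusted p = 2.04e-05). The peroxide effect on Prdx4 was -0.45 without peroxide replicate 2.

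Catalase, Cat, breaks down hydrogen peroxide in peroxisomes without a cofactor supply from glutathione or thioredoxin. It had 137, 129 and 132 CPM after doxorubicin, against 207, 208 and 224 CPM in the vehicle, and 163, 173 and 156 CPM after peroxide, against 147, 140.2 and 161 CPM. It fell after doxorubicin with no overlap (-0.68 ± 0.07, adjusted p = 1.25e-05) and overlapped its vehicle after peroxide (0.14, adjusted p = 0.119), a difference between treatments of -0.81 ± 0.10 (adjusted p = 0.000274). The doxorubicin vehicle was the high group for Cat, with the other groups between 129 and 173 CPM. That vehicle exceeded the peroxide vehicle by 0.51 ± 0.07 (adjusted p = 0.000348). Cat was among the 6 peroxide-removing enzymes not called after peroxide.

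The superoxide dismutases, which convert superoxide to hydrogen peroxide, each behaved differently. Sod3, the extracellular form, had 1.96, 2.37 and 1.99 CPM after doxorubicin, against 0.296, 0.182 and 0.0513 CPM in the vehicle, and 2.30, 2.78 and 2.01 CPM after peroxide, against 0, 0.191 and 0.0578 CPM. The vehicle values lay near the CPM of 3 reads, and Sod3 passed the filter only through the treated libraries, so a difference was bound to appear (1.40 ± 0.13, adjusted p = 5.74e-06; 1.63 ± 0.13, adjusted p = 1.57e-06). Sod2, the mitochondrial form, had 34.1, 75.7 and 42.0 CPM after doxorubicin, against 39.2, 43.6 and 40.9 CPM, and 24.8, 21.7 and 29.4 CPM after peroxide, against 64.0, 48.0 and 48.4 CPM. Doxorubicin replicate 2 was high and the others overlapped the vehicle (0.21, adjusted p = 0.493), whereas peroxide libraries all lay below theirs (-1.05 ± 0.24, adjusted p = 0.00357). The effects on Sod2 differed by 1.26 ± 0.34 (adjusted p = 0.0171). The cytosolic Sod1 fell under both treatments (-0.46 ± 0.09, adjusted p = 0.00153; -0.55 ± 0.09, adjusted p = 0.000449).

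The glutathione transferases, which join glutathione to electrophiles, fell or stayed uncalled after doxorubicin apart from Gsta4, and 3 of 5 rose after peroxide. Over all tested genes 22.1% were higher and 27.8% lower after doxorubicin, and 27.3% were higher and 23.4% lower after peroxide. Gsta4, which handles the lipid aldehyde 4-hydroxynonenal, had 40.4, 35.3 and 41.01 CPM after doxorubicin, against 28.0, 27.1 and 28.9 CPM, and 59.0, 67.4 and 60.8 CPM after peroxide, against 20.8, 20.2 and 20.6 CPM. It rose under both without overlap (0.46 ± 0.08, adjusted p = 0.000747; 1.55 ± 0.08, adjusted p = 7.22e-08), and by less with doxorubicin (-1.10 ± 0.11, adjusted p = 0.000121). Gstm2 had 319.9, 290.3 and 279.7 CPM after doxorubicin, against 263, 246 and 278 CPM, and 323, 378 and 338 CPM after peroxide, against 158, 162 and 182 CPM. It rose after peroxide (1.05 ± 0.08, adjusted p = 1.82e-06) and was not called after doxorubicin (0.18, adjusted p = 0.106), and the effects differed (-0.87 ± 0.12, adjusted p = 0.000568). Gstm1 was the only one of the 41 genes called in opposite directions, lower after doxorubicin (-0.56 ± 0.11, adjusted p = 0.00145) and higher after peroxide (0.39 ± 0.11, adjusted p = 0.0116). That is 2.44% of the 41, near the 2.56% of all tested genes with this pattern. The reverse pattern held for 0 of the 41 and 1.04% of all tested genes.

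Mgst1, a membrane-bound transferase, had 333, 294 and 298 CPM after doxorubicin, against 533, 515 and 547 CPM in the vehicle, and 330.2, 341 and 359 CPM after peroxide, against 346, 344 and 379 CPM. It fell with no overlap after doxorubicin (-0.79 ± 0.07, adjusted p = 3.21e-06), and after peroxide the groups overlapped (-0.05, adjusted p = 0.544). The doxorubicin vehicle was the high group here, with the other 3 groups between 294 and 379 CPM. Gstp1 fell after doxorubicin (-0.67 ± 0.13, adjusted p = 0.00179) and was at -0.14 after peroxide (adjusted p = 0.409; -0.29, adjusted p = 0.0478, without peroxide replicate 2). Shared 50-base windows made up 33.7% of Gstp1, mostly with Gstp2, and 18.9% of Gstm1, so both levels are uncertain. Such windows also made up 22.9% of Me1 and 21.0% of Sod2, while 19.1% of Prdx5 and 17.3% of Sqstm1 exon bases overlap other genes.

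**Figure D4:**
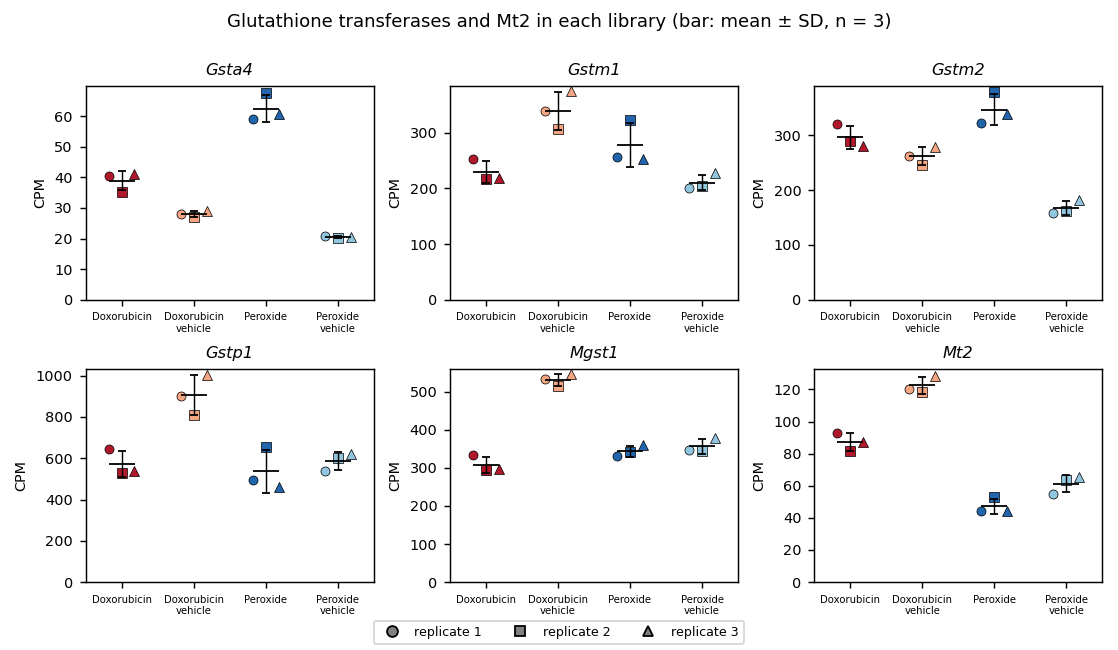
CPM of the 5 glutathione transferases and of Mt2 in each library (points, by replicate) with mean and SD (n = 3), in the groups doxorubicin, its vehicle, peroxide and its vehicle. All 6 genes are higher in the doxorubicin vehicle than in the peroxide vehicle, and Gsta4 and Gstm2 are highest after peroxide.

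The vehicle groups themselves differed. Between the day 7 vehicle of the doxorubicin experiment and the day 6 vehicle of the peroxide experiment, 16 of the 41 genes were higher and 6 lower, against 15.1% higher and 12.9% lower over all tested genes (28.0% called in all). All 5 glutathione transferases were higher in the doxorubicin vehicle, from 0.43 for Gsta4 up to 0.69 for Gstm1 on the log2 scale (adjusted p = 0.000983 for Gstm1). Mt1 and Mt2, metal-binding metallothioneins, were higher there by 0.65 ± 0.12 (adjusted p = 0.00252) and 0.99 ± 0.09 (adjusted p = 2.98e-05). Hmox1 was also higher (0.68 ± 0.11, adjusted p = 0.00105), while Prdx6 (-0.41 ± 0.08, adjusted p = 0.00391) and Gpx1 (-1.64 ± 0.52, adjusted p = 0.0371) were lower. Day, experiment and passaging cannot be told apart in this comparison, and each treatment is therefore read against its own vehicle.

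Mt1 and Mt2 fell under both treatments. The differences were -0.47 ± 0.12 with doxorubicin (adjusted p = 0.00839) and -0.52 ± 0.12 with peroxide (adjusted p = 0.00423) for Mt1, and -0.49 ± 0.09 (adjusted p = 0.00113) and -0.37 ± 0.09 (adjusted p = 0.00592) for Mt2. The peroxide call of Mt2 was lost with upper quartile scaling (adjusted p = 0.0589), and 73.5% of its exon bases overlap an antisense gene, from which unstranded reads could not be told apart. Blvrb, which reduces biliverdin and flavins, was called in neither (-0.13, adjusted p = 0.307; 0.07, adjusted p = 0.616).

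Across both treatments, Gpx3, Gpx8, Gsta4, Hmox1 and Prdx5 rose in both experiments, whose libraries are separate. Sod3 was called higher in both as well, but had to differ because of the filter. With Sod3 the shared rises were 6 of the 41 genes (14.6%), near the 13.0% of all tested genes. The peroxide call of Gpx3 was lost in 8 of 24 alternatives. Another 10 fell in both, namely Gsr, Me1, Mt1, Mt2, Pgd, Prdx4, Slc7a11, Sod1, Tkt and Txn1. They made up 10 of the 20 that fell after doxorubicin and 10 of the 13 that fell after peroxide, and 24.4% of the 41, beside 13.5% of all tested genes. None of these 10 is a glutathione peroxidase or a glutathione transferase, and 5 are direct targets. The 41 hold 5 glutathione peroxidases, 5 glutathione transferases and 13 direct targets, and with such small counts no family pattern was tested.

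**Figure D5:**
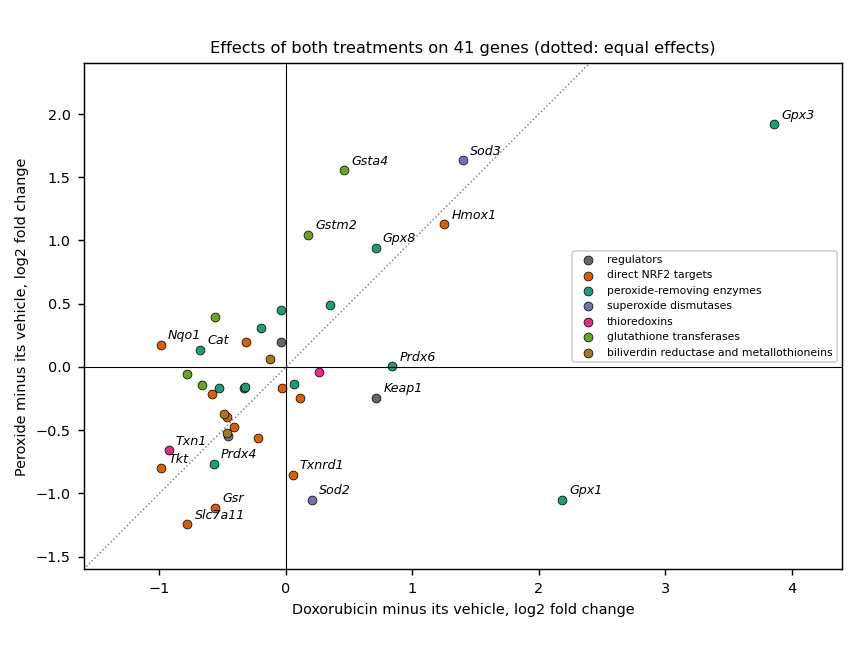
Log2 fold change after peroxide against that after doxorubicin for the 41 genes, each against its own vehicle and coloured by role; the dotted line marks equal effects. Gpx1 lies far below the line (2.18 and -1.05), Gsta4 and Gstm2 lie above it, and Hmox1 lies close to it.

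The effects of the treatments differed in 17 of the 41 genes, 6 more positive and 11 more negative with doxorubicin, against 13.5% and 20.1% of tested genes (33.6% called in all). With median-of-ratios scaling the split was 7 and 8, and the share of positive among called differences was 46.7% in place of 35.3% for the members and 51.1% in place of 40.3% for all genes. That scaling ended the calls of G6pdx (adjusted p = 0.145), Prdx2 (adjusted p = 0.0629) and Prdx3 (adjusted p = 0.0660). By at least 1 log2 unit the effects differed for Gpx1, Sod2, Nqo1 and Gsta4. Differences below that size were called for Txnrd1, Prdx6, Gsr, Slc7a11, Gstm1, Gstm2, Cat, Mgst1, Taldo1, Gpx4, Prdx2, G6pdx and Prdx3. The call of G6pdx was lost without 10 of the 12 libraries in turn (adjusted p = 0.0529 to 0.105) and that of Slc7a11 without 8 (adjusted p = 0.0643 to 0.0869). Conversely, without doxorubicin replicate 1 the difference was called for Keap1 (1.41), Nfe2l2 (-0.29), Txn1 (-0.35), Gpx8 (-0.28) and Gstp1 (-0.61), and without peroxide replicate 2 for Srxn1 (0.44) and Txn2 (0.47). Without the 3 libraries that lay apart, 10 positive and 14 negative differences were called, among them Gpx3 (0.48, adjusted p = 0.00237) and Hmox1 (0.27, adjusted p = 0.0471). Gstp1 was also called without doxorubicin vehicle replicate 2 or peroxide replicate 3. Of the 17 genes called in the main model, all but Sod2, Prdx2 and Prdx3 were also called between the vehicle groups, with the opposite sign.

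A wider list of 37 genes of the pathway covered other regulators, further NRF2 targets, thiol systems and haem breakdown. Of these 36 were tested, and Gpx2 was at 0 in every library. After doxorubicin 12 rose, 12 fell and 12 were not called, and after peroxide 9 rose, 9 fell and 18 were not called. Over all tested genes 22.1% were higher and 27.8% lower after doxorubicin, and 27.3% and 23.4% after peroxide. Median log2 fold changes were -0.08 and -0.06. The 18 further NRF2 targets tested were not mostly lower, unlike the 13 direct targets. Of these 18, 7 rose and 5 fell after doxorubicin (median 0.25), and 5 rose and 3 fell after peroxide (median -0.05). Mafk, a small MAF partner of NRF2, had 6.65, 22.8 and 9.44 CPM after doxorubicin, against 2.52, 1.73 and 1.39 CPM in the vehicle, above every vehicle library (2.12 ± 0.36, adjusted p = 0.000558), and was at -0.05 after peroxide (adjusted p = 0.930). Its doxorubicin replicate 2 was the highest, as for Keap1 and Sod2.

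Txnip, which binds and restrains thioredoxin, rose under both treatments (0.55 ± 0.11, adjusted p = 0.00202; 1.73 ± 0.11, adjusted p = 3.84e-07). Of its exon bases 19.4% overlap the antisense gene Gm15441 and 15.4% of those of Gss overlap genes of the other strand, from which unstranded reads could not be told apart. The epoxide hydrolase Ephx1 also rose under both (0.70 ± 0.10, adjusted p = 0.000104; 1.07 ± 0.10, adjusted p = 3.79e-06). The transferase Gsta3 had 3.59, 2.39 and 2.58 CPM after doxorubicin, against 0.592, 0.821 and 0.769 CPM in the vehicle, and 2.44, 3.06 and 2.01 CPM after peroxide, against 0.398, 0 and 0.462 CPM. Like Sod3 it passed the filter only through the treated libraries, so a difference was bound to appear (1.15 ± 0.18, adjusted p = 0.000297; 1.45 ± 0.18, adjusted p = 4.68e-05). It is among the counted rises of the wider list and of its further NRF2 targets. Gss, glutathione synthetase, rose after doxorubicin (1.12 ± 0.31, adjusted p = 0.0113) and was not called after peroxide (-0.08, adjusted p = 0.854), where its value without the 3 libraries that lay apart was 0.38 (adjusted p = 0.00137). The haem transporter Slc48a1 had 47.7, 129 and 65.2 CPM after doxorubicin, against 32.7, 29.1 and 34.1 CPM in the vehicle. It rose by 1.19 ± 0.28 (adjusted p = 0.00502), and by 0.79 without the high doxorubicin replicate 2 (adjusted p = 0.00515). The transferase Mgst3 fell after doxorubicin (-1.46 ± 0.12, adjusted p = 1.62e-06). After peroxide it was at -0.22 (adjusted p = 0.139), and was called without peroxide replicate 2 (adjusted p = 0.0305) or without the 3 libraries that lay apart (adjusted p = 0.00478). Gsto1, an omega-class transferase, rose after doxorubicin (1.07 ± 0.31, adjusted p = 0.0136) and fell after peroxide (-0.85 ± 0.31, adjusted p = 0.0384). The first call was lost without doxorubicin replicate 2 or 3 or vehicle replicate 3 (adjusted p = 0.05005 to 0.0527) and the second without peroxide replicate 1 or 2 or vehicle replicate 1 or 2 (adjusted p = 0.0668 to 0.140).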

How the data were processed

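RNA of 12 libraries was sequenced, and the authors deposited CPM (reads per 1e+06 reads assigned to genes) for all genes, per the file headers. The submitters' processing notes name bcl2fastq, DRAGEN and mm10; counting method and strandedness: not given in the sources used here. Of 55774 lines, repeats of 168 identifiers held identical values and were dropped, leaving 55487 genes; 0 value columns were unmapped. Depth was read from the step between low values. Among values worth at most 20 reads, whole reads made up 74.7 to 79.9% (tolerance 0.001 read), so no count model was used.

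Values entered limma 3.58.1 (R 4.3.3, with a mean-variance trend) as log2(CPM + 1), which understates changes of low genes. The 13280 genes that reached 1 CPM in 3 or more libraries were tested in 1 model over the 4 groups with 8 residual degrees of freedom. Tests were two-sided, with Benjamini-Hochberg adjustment over all tested genes within each comparison and a threshold of 0.05. A gene "rose", "fell" or was "called" where it passed that threshold. The method was tested on simulated data. Groups came from the library titles. The members, lists, the rule for named genes and the alternatives were chosen with earlier results of these data known.

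Values in every library are given for Nfe2l2, Keap1, the 5 largest called rises and falls per treatment, and members whose effects differ by at least 1 log2 unit; Cat and Gpx8 were added after their values were seen. Wider pathway genes are named where called with at least 1 log2 unit in either treatment comparison. Positions and shared or overlapping exon sequence come from GENCODE M21 (GRCm38/mm10), in which 99.4% of identifiers were found, and promoter windows from RefSeq (GRCm38.p6). Python 3.11.15 with pandas 2.3.3, numpy 2.4.6 and matplotlib 3.10.9 prepared tables and figures. A planned comparison of selenoproteins needed protein sequences and was not run.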

Additional observations from a re-analysis of the deposited data

Results flagged for a closer look

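The effect of doxorubicin differed from that of peroxide, by the limma test of the difference itself, in 17 of the 41 genes. The values are the doxorubicin effect minus the peroxide effect on the log2 scale. Doxorubicin gave the more positive effect for Gpx1 (3.23), Sod2 (1.26), Txnrd1 (0.90), Prdx6 (0.83), Gsr (0.55) and Slc7a11 (0.47). It gave the more negative effect for Nqo1 (-1.17), Gsta4 (-1.10), Gstm1 (-0.96), Gstm2 (-0.87), Cat (-0.81), Mgst1 (-0.73), Taldo1 (-0.52), Gpx4 (-0.51), Prdx2 (-0.48), G6pdx (-0.37) and Prdx3 (-0.36). Gsr fell under both treatments and Gsta4 rose under both, so these differ in size. The differences of Slc7a11 and G6pdx lost their calls in 13 and 17 of 23 alternatives. For Gpx1, Prdx6, Nqo1, Cat, Mgst1, Taldo1, G6pdx and Prdx3 the doxorubicin effect was called and the peroxide effect was not. For Sod2, Txnrd1, Gstm2, Gpx4 and Prdx2 the reverse held, and Gstm1 was called in opposite directions. Doses, exposure times and days of lysis differed between the experiments, and these cannot be told apart from the agent. All of the 17 but Sod2, Prdx2 and Prdx3 were also called between the vehicle groups, with the sign opposite to the difference of effects. Examples are Cat (0.51), Gstm1 (0.69), Nqo1 (0.34) and Prdx6 (-0.41), as doxorubicin vehicle minus peroxide vehicle. The part of the vehicle levels in these differences was not tested.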

How the results depend on the processing

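Of 164 results for single members, 112 stayed called or not called as in the main model in every alternative run for them (22 to 24 each). Of 91 calls 68 kept both call and direction in every alternative. The direction of results that were not called was not compared. With the replicate block, 8 members rose and 18 fell after doxorubicin, 10 and 13 after peroxide, and the difference was called for 5 and 10. No pairing of libraries by number was seen, as deviations of libraries with 1 number correlated between -0.31 and 0.19. With 3 libraries per group, such correlations cannot exclude pairing. With median-of-ratios scaling the median of the peroxide-removing enzymes after doxorubicin was 0.078, and with upper quartile scaling that after peroxide was 0.14. The peroxide call of Nfe2l2 (adjusted p = 0.0516 to 0.0908) and the doxorubicin call of Sqstm1 (adjusted p = 0.0534 to 0.112) were lost with either scaling, without the trend, without the filter and with the block. The block also ended the doxorubicin call of Me1 (adjusted p = 0.0501), as did separate fits (adjusted p = 0.0580), and no filter ended that of Prdx4 (adjusted p = 0.0797). With array weights 2 targets rose after doxorubicin, 3 enzymes fell after peroxide and the enzyme median after doxorubicin was -0.029. Over all genes, array weights gave 2847 positive differences and 2694 genes lower between vehicles. At a threshold of 0.01, differences fell to 3 positive and 7 negative for members and 623 and 1318 for all genes, with 1124 higher and 918 lower between vehicles. Without the 3 libraries that lay apart, the enzyme median after doxorubicin was -0.066 and the target median after peroxide -0.50, 2 enzymes fell after peroxide, and 10 members had positive differences. Counting Sqstm1 and Prdx1 as direct targets gave an enzyme median of 0.067 after doxorubicin, and after peroxide a target median of -0.24 and an enzyme median of 0.14. Leaving out each library in turn gave enzyme medians of -0.047 to 0.057 after doxorubicin, 1 to 3 enzymes lower and 1 to 2 targets higher after peroxide, target medians of -0.50 to -0.32 after peroxide, and 1131 to 2262 positive differences over all genes. The causes of these shifts were not tested. Levels of Sod3 in vehicle libraries are limited by depth.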
